A study of Homo sapiens with 6 samples.

Results

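The genes described are 38 members of the hypoxia response and of glycolysis, taken by symbol from the 60649 gene rows of an RNA-seq count table of OVCAR5 cells. They are the HIF alpha subunits and their oxygen sensors, the glucose transporters and glycolytic enzymes, the PFKFB enzymes, the genes that steer pyruvate and lactate, and a set of other hypoxia targets. All 38 were found in the table, and 37 passed the filter on low counts. LDHB, the heart-type lactate dehydrogenase subunit, did not pass, with 3, 2 and 0 counts in replicates 1, 2 and 3 with METTL3 and 1, 0 and 0 with the vector.

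OVCAR5 is an established human ovarian cancer cell line with epithelial features. Stable lines were made with lentivirus carrying METTL3, the catalytic subunit of the complex that writes N6-methyladenosine on mRNA, in the pCDH vector, and control lines with empty-vector lentivirus, and both were selected with puromycin. The series holds 3 METTL3-overexpressing and 3 vector control libraries of poly(A) mRNA, grown in RPMI with serum, and the labels name no cisplatin and no reduced oxygen for any of them. The labels call the controls parental in one place and empty vector in another, name no separate clones, and record no cell density or harvest time, so p-values measure the spread between these libraries, which may be technical. The labels give a TruSeq stranded kit and paired ends, whereas the study's methods give an NEBNext kit and single ends.

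HIF1A and EPAS1 encode the alpha subunits of the hypoxia-inducible factors, which are hydroxylated by EGLN enzymes when oxygen is present and are then marked by VHL for destruction. When oxygen falls, the alpha subunits persist, pair with ARNT and bind hypoxia response elements near genes for glucose uptake, glycolysis, lactate export and adaptation to low oxygen. Cells in crowded cultures use up the oxygen around them, so these genes are often read as a sign of culture density, and tumour cells also run glycolysis at high rates in the presence of oxygen.

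The stretches of 250 bases before the transcription start are shown for SLC2A1 and HK2, the members with the lowest p-values between groups, for EGLN3, the member with the lowest p-value across replicate numbers, and for PGK1 and LDHA, which were highest in 1 vector control library. They are RefSeq sequences of GRCh38.p14, written 5′ to 3′ on the gene's strand, and capitals mark the letters ACGTG or GCGTG on either strand, the core of the hypoxia response element.
SLC2A1, chr1:42958869-42959118, minus strand: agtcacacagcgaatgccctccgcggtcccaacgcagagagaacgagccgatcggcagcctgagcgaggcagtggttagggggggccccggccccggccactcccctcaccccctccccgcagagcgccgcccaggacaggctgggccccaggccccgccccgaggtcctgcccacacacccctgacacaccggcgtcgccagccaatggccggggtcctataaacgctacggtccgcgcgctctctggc
HK2, chr2:74833877-74834126, plus strand: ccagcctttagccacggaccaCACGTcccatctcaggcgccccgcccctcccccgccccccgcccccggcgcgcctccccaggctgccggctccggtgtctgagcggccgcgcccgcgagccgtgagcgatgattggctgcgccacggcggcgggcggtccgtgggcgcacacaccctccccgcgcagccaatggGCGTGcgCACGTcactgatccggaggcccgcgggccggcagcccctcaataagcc
EGLN3, chr14:33951075-33951324, minus strand: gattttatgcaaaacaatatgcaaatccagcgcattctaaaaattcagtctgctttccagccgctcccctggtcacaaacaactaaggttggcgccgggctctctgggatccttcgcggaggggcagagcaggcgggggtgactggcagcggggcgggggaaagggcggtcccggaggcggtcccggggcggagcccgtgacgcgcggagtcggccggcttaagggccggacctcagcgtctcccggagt
PGK1, chrX:78103998-78104247, plus strand: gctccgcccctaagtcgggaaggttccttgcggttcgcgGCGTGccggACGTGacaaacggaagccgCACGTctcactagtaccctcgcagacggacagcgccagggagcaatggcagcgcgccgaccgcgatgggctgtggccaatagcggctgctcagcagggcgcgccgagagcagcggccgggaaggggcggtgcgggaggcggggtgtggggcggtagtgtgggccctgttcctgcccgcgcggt
LDHA, chr11:18394313-18394562, plus strand: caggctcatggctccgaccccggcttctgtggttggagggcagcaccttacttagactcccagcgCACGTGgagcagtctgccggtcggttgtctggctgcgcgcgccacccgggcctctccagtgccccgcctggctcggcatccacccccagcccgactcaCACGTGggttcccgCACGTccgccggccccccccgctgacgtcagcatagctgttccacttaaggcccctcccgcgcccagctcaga
The LDHA stretch held 5 matches to ACGTG, counted on both strands, because CACGTG reads the same on either strand and counts once on each. The HK2 and PGK1 stretches each held 2 matches to ACGTG and 1 to GCGTG, and the SLC2A1 and EGLN3 stretches held neither. RefSeq windows of 300 bases, with 50 bases after the start, were at hand for 34 members, some with several starts. ACGTG was in 24 of their 64 windows (37.5%), against 21.4% of 35116 windows over all genes, and GCGTG was in 43.8% against 36.5%. Either core was in 67.2% of the members' windows and in 48.4% of all windows, and EGLN3, P4HA2 and PGAM1 had no match in any window. In GENCODE on GRCh38, the SLC2A1 gene (ENSG00000117394.24) spans chr1:42925353-42958893, HK2 (ENSG00000159399.10) spans chr2:74834127-74893359 and EGLN3 (ENSG00000129521.15) spans chr14:33924227-34462774. PGK1 spans chrX:77910739-78129295 and LDHA spans chr11:18394560-18408425. The stretches were placed by RefSeq starts, so those of EGLN3 and PGK1 lie within these gene spans. The SLC2A1 and LDHA stretches overlap the 5′ ends of their gene spans. A match is a run of letters and not a shown binding site, and these shares were not tested.

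Total counts ranged from 96633925 to 125463386 per library, and no 2 libraries agreed within counting noise. The targeted gene METTL3 stood at 152, 165 and 175 CPM (read counts relative to the scaled total of the library) in the 3 METTL3 libraries and 80.6, 68.6 and 71.6 CPM in the vector controls (log2 fold change 1.16, standard error (SE) 0.117, adjusted p = 0.072). Principal component 1 of all genes, with 40.5% of the variance, placed replicate 1 of both groups apart from the other 4 libraries. Component 2, with 22.8% of the variance, placed the replicate 1 libraries at opposite ends, METTL3 at 35.8 and the vector control at -51.3. All 6 epithelial markers were detected, with summed levels of 7169 to 8173 CPM with METTL3, against 5818 to 9072 CPM with the vector. These sums are mostly keratin genes, and the epithelial cadherin gene CDH1 was at 439, 358 and 346 CPM with METTL3, against 201, 184 and 189 CPM with the vector. CDH1 did not overlap between groups (log2 fold change 0.99, SE 0.131, adjusted p = 0.17 in edgeR's test), and how far this bears on the results was not tested. Of the ovarian markers, PAX8 stood at 6.38 to 11.6 CPM, WT1 at 0 to 0.203 CPM, and SOX17 at 0 in all libraries except vector control replicate 1, with 0.0105 CPM. The 4 leukocyte markers summed to at most 0.106 CPM with METTL3 and at most 0.168 CPM with the vector, the 4 fibroblast markers to 17.3 to 19.8 and 8.89 to 20.1 CPM, nearly all of it COL1A1, and the 3 endothelial markers to 7.98 to 22.1 and 5.15 to 8.17 CPM, nearly all of it PECAM1. METTL3 replicate 1 also stood out for PECAM1 (21.4 CPM, against 4.67 to 9.29 in the others) and MUC16 (49.4 CPM, against 1.98 to 7.20), and the part of this in the results was not tested.

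PKM, ENO1, GAPDH and LDHA were the most abundant members per length. On the scale of CPM per kilobase of the MANE transcript, averaged over the 6 libraries, the level of pyruvate kinase PKM was 1647, of enolase ENO1 1540, of glyceraldehyde phosphate dehydrogenase GAPDH 1364 and of lactate dehydrogenase LDHA 1015, and the median over the 37 members that passed the filter was 34.1. Within gene families 1 form usually dominated. Per kilobase, ENO1 exceeded the neuronal enolase ENO2 (15.6), the glucose transporter SLC2A1 (104) exceeded SLC2A3 (5.18), and the platelet phosphofructokinase PFKP (147) exceeded the liver form PFKL (66.6) and the muscle form PFKM (26.6). HIF1A stood at 144 and EPAS1 at 41.2 CPM per kilobase. The lactate exporter SLC16A3 stood at 156 and SLC16A1 at 38.1 CPM per kilobase, while HK1 (41.1) exceeded HK2 (20.7). LDHB stood at 0.00681 on this scale, with 6 counts over all libraries, and 33.4% of its exon bases lie under exons of another gene on the same strand. BNIP3 was the lowest of the members that passed the filter, at 0.696 CPM per kilobase.

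**Figure D1:**
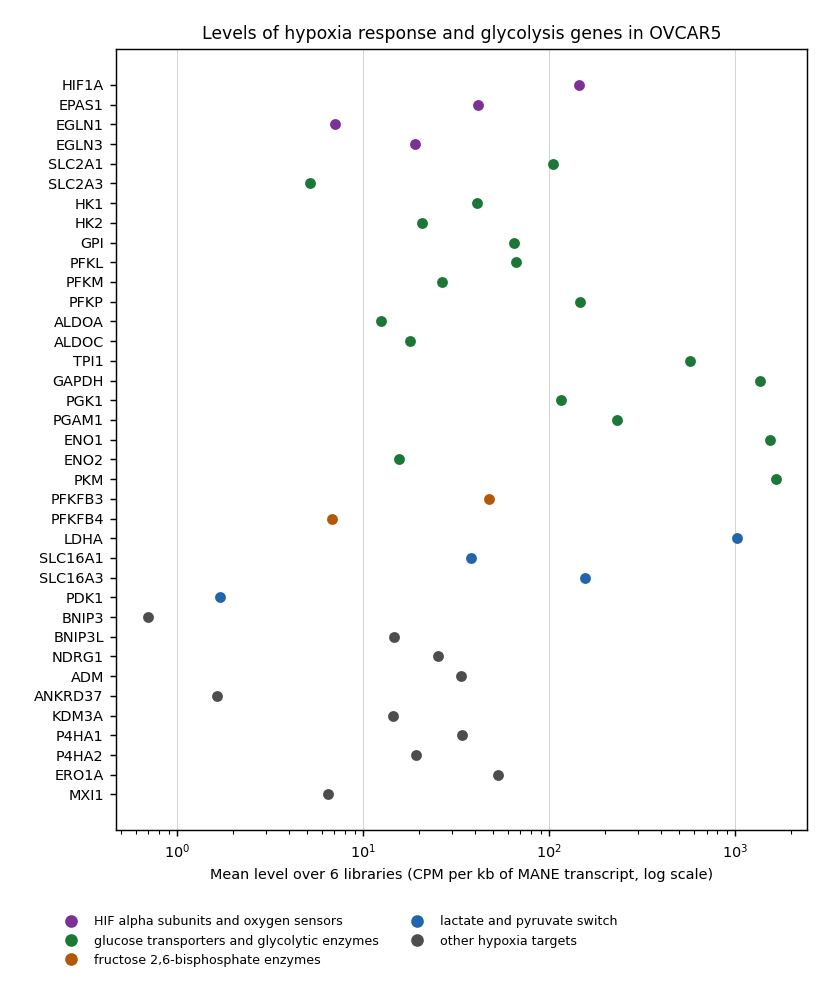
Mean level of the 37 members that passed the filter over all 6 libraries, in CPM per kilobase of MANE transcript on a log axis, with 1 point per gene coloured by role. The points run from 0.696 for BNIP3 to 1647 for PKM, and PKM, ENO1, GAPDH and LDHA lie from 1015 to 1647.

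The largest positive changes with METTL3 were those of SLC2A1 (1.66-fold), EGLN3 (1.6-fold) and HK2 (1.52-fold), genes of glucose uptake, oxygen sensing and glucose phosphorylation. ENO2 had the largest negative change, with the vector 1.33-fold above METTL3. With edgeR's quasi-likelihood test on all 6 libraries and genes of low count filtered out, 0 of 37 members had an adjusted p-value under 0.05, where 0 of 22038 genes (0%) did. At an unadjusted p-value under 0.05 there were 5 members (13.5%), against 8.3% of all genes tested. SLC2A1, HK2, GPI and ALDOA were higher (4.4% of all genes were), and SLC16A1 was lower (3.91% of all genes). DESeq2 called SLC2A1 alone, as higher, where it called 1.47% of its genes and 1.01% as higher. With the low-count filter removed, edgeR called SLC2A1, HK2 and EGLN3, all higher, where it called 1.3% of genes and 0.782% as higher. Without vector control replicate 1, edgeR called 3 members, of which SLC2A1 was higher and ENO2 and PFKFB4 were lower, where 1.62% of genes were called, 0.676% as higher and 0.946% as lower, and without each of the other libraries it called 0. The replicate block also left 0 members called (0% of all genes), as did removal of the GC and length trend, without the block (0.00454% of all genes) or with it (0.0272%). Fitted changes were positive for 21 members and negative for 16, and their median log2 fold change was 0.017, against -0.018 over all genes tested. The 3 METTL3 libraries did not overlap the 3 vector control libraries for 10 members (27%), where 17.4% of all genes tested showed such a separation. METTL3 was higher for 7 of them (18.9%, against 8.47% of all genes) and lower for 3 (8.11%, against 8.93%). Most members are abundant, and the shares over all genes, here and below unless stated, also cover genes of lower level. In bulk RNA, fewer cells that express a gene and less RNA per cell cannot be told apart.

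Of the 4 HIF subunits and oxygen sensors, none passed the test, and 3 had positive fitted changes. HIF1A was at 638, 579 and 555 CPM with METTL3, in the order of replicates 1, 2 and 3, and at 558, 540 and 545 CPM with the vector, so the groups overlapped, with a log2 fold change of 0.11 (SE 0.115). EPAS1, which encodes the HIF2 alpha subunit, was at 230, 258 and 242 CPM with METTL3 and at 128, 213 and 203 CPM with the vector. The groups for EPAS1 did not overlap, and vector control replicate 1 lay well under the other 5 libraries (log2 fold change 0.43, SE 0.19, adjusted p = 0.606). EGLN3, a prolyl hydroxylase that is itself a HIF target, was at 95.6, 47.6 and 47.2 CPM with METTL3 and at 55.4, 30.3 and 33.3 CPM with the vector. METTL3 exceeded the vector within each replicate number for EGLN3, while replicate 1 exceeded replicates 2 and 3 in both groups (log2 fold change 0.68, SE 0.324, adjusted p = 0.621). EGLN1, the main HIF prolyl hydroxylase, ranged from 25.9 to 35.2 CPM with a log2 fold change of -0.067 (SE 0.142). A share of 55.8% of its exon bases lies under exons of another gene on the same strand, so its counts are uncertain.

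Among the 17 glucose transporters and glycolytic enzymes, 9 had positive and 8 negative fitted changes, with a median log2 fold change of 0.052 and none past the adjusted threshold. SLC2A1, the main glucose transporter of many tumour cells, was at 476, 427 and 419 CPM with METTL3 (441 ± 31.1, SD, n = 3) and at 279, 263 and 255 CPM with the vector (266 ± 12.2, SD, n = 3). The groups lay far apart relative to their spread and every METTL3 library exceeded every vector control library. The fold change was 1.66 (log2 0.73, SE 0.115), with an unadjusted p of 0.000171 and an adjusted p of 0.289 in edgeR's test. HK2, the inducible hexokinase that traps glucose in the cell, was at 159, 134 and 129 CPM with METTL3 and at 76.0, 103 and 99 CPM with the vector. Its groups did not overlap either, with the largest gap at replicate 1 (log2 fold change 0.60, SE 0.15, adjusted p = 0.406). HK1, the constitutive hexokinase, was at 134, 154 and 141 CPM against 105, 184 and 170 CPM, so the vector controls lay on both sides of the METTL3 libraries (log2 fold change -0.094, SE 0.2).

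GPI, which turns glucose phosphate into fructose phosphate, was at 297, 302 and 282 CPM with METTL3 and at 227, 244 and 239 CPM with the vector (log2 fold change 0.31, SE 0.106, adjusted p = 0.546). The aldolase ALDOA was at 23.7, 23.2 and 21.0 CPM against 19.6, 19.3 and 16 CPM (log2 fold change 0.31, SE 0.131, adjusted p = 0.593). Neither gene's groups overlapped, but 42.8% of ALDOA's exon bases lie under exons of another gene on the same strand, so its low level and its change are uncertain. PKM, which makes pyruvate, was at 4212, 4105 and 3988 CPM against 3341, 3570 and 3563 CPM, again without overlap (log2 fold change 0.23, SE 0.123, adjusted p = 0.636).

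The enzymes between aldolase and pyruvate kinase had negative fitted changes, none with an unadjusted p-value under 0.05. GAPDH was at 1582, 1685 and 1734 CPM with METTL3 and at 2319, 1601 and 1596 CPM with the vector, with vector control replicate 1 above the other 5 libraries (log2 fold change -0.14, SE 0.172). Without that library the log2 fold change of GAPDH was 0.060. PGK1, the phosphoglycerate kinase, was at 625, 502 and 512 CPM against 730, 479 and 490 CPM, with replicate 1 high in both groups (log2 fold change -0.052, SE 0.189). Vector control replicate 1 was thus the highest library for GAPDH and PGK1. The triose phosphate isomerase TPI1 had a log2 fold change of -0.23 (SE 0.156), with vector control replicate 1 at 1027 CPM and the other 5 libraries at 701 to 758 CPM. The phosphoglycerate mutase PGAM1 and ENO1 had log2 fold changes of -0.16 (SE 0.111) and -0.22 (SE 0.138), without overlap between groups. Both enzymes act on the way from phosphoglycerate to phosphoenolpyruvate, and ENO2 is the less abundant enolase. ENO2 was at 29.0, 30.6 and 32.7 CPM with METTL3 and at 26.0, 49.0 and 48.0 CPM with the vector. For ENO2, replicates 2 and 3 lay lower with METTL3 and replicate 1 did not (log2 fold change -0.42, SE 0.225, adjusted p = 0.64). SLC2A3, a high-affinity glucose transporter, was at 31.6, 15.0 and 13.9 CPM against 24.7, 16.9 and 16.8 CPM, with a log2 fold change of 0.052 (SE 0.318). ALDOC, the brain aldolase, was at 40.6, 25.2 and 23.4 CPM against 30.9, 26.3 and 25.6 CPM (log2 fold change 0.11, SE 0.211). Both had their highest value in METTL3 replicate 1 and their next in vector control replicate 1. The phosphofructokinases PFKL, PFKM and PFKP had log2 fold changes of 0.17, -0.18 and 0.086, with overlapping groups.

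The PFKFB enzymes make and break the fructose bisphosphate that activates phosphofructokinase. PFKFB3, the form known for driving glycolysis, was at 265, 183 and 176 CPM with METTL3 and at 222, 227 and 207 CPM with the vector (log2 fold change -0.073, SE 0.169). PFKFB4 was at 21.8, 21.1 and 21.8 CPM against 17.1, 30.5 and 29.9 CPM (log2 fold change -0.26, SE 0.211). Both lay lower with METTL3 in replicates 2 and 3 and higher in replicate 1.

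Of the genes that steer pyruvate and lactate, LDHA, which turns pyruvate into lactate, was at 2104, 2303 and 2311 CPM with METTL3 and at 2789, 2056 and 2086 CPM with the vector. Vector control replicate 1 was the highest library and the other vector controls the lowest, so the log2 fold change was -0.045 (SE 0.156). The lactate transporter SLC16A1 was at 115, 136 and 135 CPM against 151, 159 and 162 CPM. It was the member with the lowest p-value among those with negative changes, and its groups did not overlap (log2 fold change -0.30, SE 0.114, adjusted p = 0.565). SLC16A3, the hypoxia-induced lactate exporter, ranged from 404 to 496 CPM with METTL3 and from 350 to 413 CPM with the vector (log2 fold change 0.22, SE 0.135). PDK1, a pyruvate dehydrogenase kinase, was at 34.5, 21.7 and 21.4 CPM against 24.0, 21.8 and 20.2 CPM (log2 fold change 0.23, SE 0.198). METTL3 replicate 1 stood apart for PDK1, with vector control replicate 1 next.

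The 10 other hypoxia targets had a median log2 fold change of 0.014, with 7 positive and 3 negative and none past an unadjusted p-value of 0.05. ERO1A, an oxidase of the endoplasmic reticulum, was at 319, 279 and 280 CPM with METTL3 and at 248, 246 and 256 CPM with the vector, without overlap (log2 fold change 0.22, SE 0.112, adjusted p = 0.627). NDRG1, a stress-responsive gene often used as a hypoxia marker, was at 93.3, 68.7 and 66.2 CPM against 66.2, 84.2 and 77.5 CPM. Its order was opposite in replicate 1 and in replicates 2 and 3, and the log2 fold change came to 0.0014 (SE 0.162). ADM, the vasodilator adrenomedullin, was at 52.9, 46.8 and 48.8 CPM against 47.3, 48.8 and 54.4 CPM (log2 fold change -0.019, SE 0.111). BNIP3, a mitophagy receptor, was at 1.35, 1.09 and 0.872 CPM against 1.37, 0.672 and 1.09 CPM (log2 fold change 0.084, SE 0.308). Counts of its 44 annotated pseudogenes came to 59.8% of its own, so BNIP3 is uncertain. P4HA1, a collagen prolyl hydroxylase subunit, was at 102, 81.8 and 89.0 CPM against 112, 85.4 and 90.4 CPM (log2 fold change -0.076, SE 0.143). The remaining targets, BNIP3L, ANKRD37, KDM3A, P4HA2 and MXI1, had log2 fold changes from -0.0058 to 0.068 with overlapping groups. ANKRD37 has 40.3% of its exon bases under exons of the opposite strand.

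**Figure D2:**
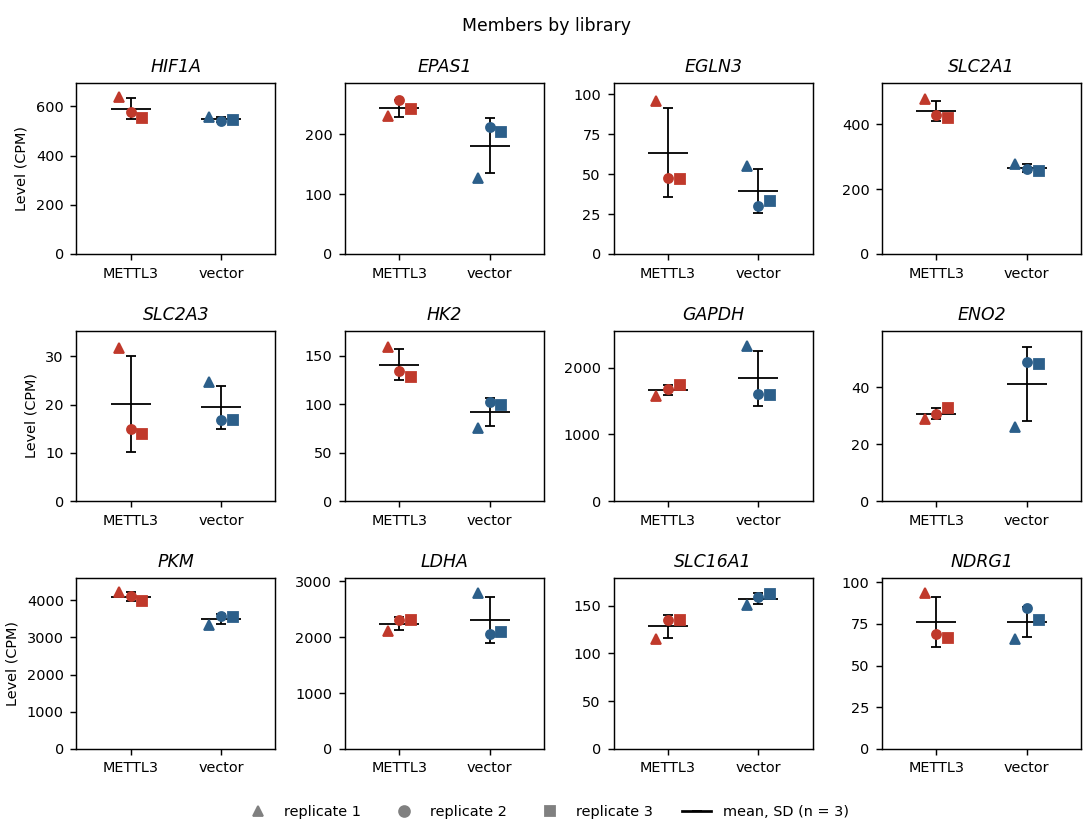
Levels in CPM of 12 members in each library, with the METTL3-overexpressing and vector control groups side by side, a marker shape for each replicate number, and bars for the mean and SD of 3 libraries. SLC2A1 separates the groups with METTL3 at 419 to 476 CPM and the vector at 255 to 279 CPM, EGLN3 and SLC2A3 are highest in replicate 1, and GAPDH and LDHA are highest in vector control replicate 1.

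With replicates 2 and 3 alone the count was larger. This fit leaves out the replicate 1 libraries, which stood apart on principal component 1. Earlier results of these data were known, so its p-values are not those of a choice made blind to the data. Here 16 of 37 members (43.2%) passed an adjusted p-value of 0.05 in edgeR's test, where 15.2% of all genes tested did. There were 8 higher members (6.66% of all genes) and 8 lower ones (8.59% of all genes). The members are abundant, and among genes at 10 CPM or more on average the figures were 16 of 35 members (45.7%) and 22.1% of genes. Lists described below had calls in this fit too, namely 12 of 28 other HIF targets, 6 of 12 nutrient stress genes and 5 of 10 YAP targets. Fewer were called of the HIF regulators (3 of 15), proliferation genes (3 of 20), pentose phosphate and glycogen enzymes (3 of 12) and genes of mitochondrial pyruvate entry (2 of 12). The higher members were SLC2A1, HK2, EGLN3, EPAS1, GPI, PKM, ALDOA and LDHA. Among them, SLC2A1 rose by a log2 fold change of 0.71 (SE 0.0507, adjusted p = 5.77e-07 from edgeR's test), close to its value on all 6 libraries, and EGLN3 rose by 0.57 (SE 0.064, adjusted p = 2.61e-05). HK2 rose by 0.38 and EPAS1 by 0.27. LDHA passed narrowly, at 0.15 (adjusted p = 0.0448), and had a negative change with replicate 1 included. The lower members were ENO2, PFKFB4, PFKFB3, HK1, NDRG1, SLC16A1, EGLN1 and PFKM. ENO2 fell by 0.62 (SE 0.06, adjusted p = 7.67e-06) and PFKFB4 fell by 0.50 (SE 0.0642, adjusted p = 9.37e-05). All 6 epithelial markers also passed as higher in this fit, CDH1 with a log2 fold change of 0.91 (SE 0.0522), and their part in the calls of the members was not tested. In further fits of the same libraries, added after seeing the data, DESeq2 called 16 members (19.6% of its genes). There edgeR with the GC and length trend taken out called 20 (21.4% of all genes), 12 higher (12.4%) and 8 lower (8.99%). The spread behind such calls is that of 2 libraries per group which lay close together. Their chi-square per degree of freedom was 12.6 for the METTL3 pair and 13.1 for the vector pair, against 112 to 250 between either of them and replicate 1 of the same group.

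Within replicate numbers, METTL3 exceeded the vector in all 3 for 11 members (29.7%, against 19.5% of all genes) and lay under it in all 3 for 6 (16.2%, against 19.9%). The sign was mixed for the other 20 (54.1%, against 60.5%). SLC2A1 differed little between numbers, with log2 differences of 0.77, 0.70 and 0.72 for numbers 1, 2 and 3. HK2 gave 1.06, 0.39 and 0.38, and ENO2 gave 0.15, -0.68 and -0.56. The median difference over the members was 0.26 for number 1, -0.0077 for number 2 and 0.026 for number 3, where the medians over all genes were -0.00082, -0.0052 and -0.0044.

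**Figure D3:**
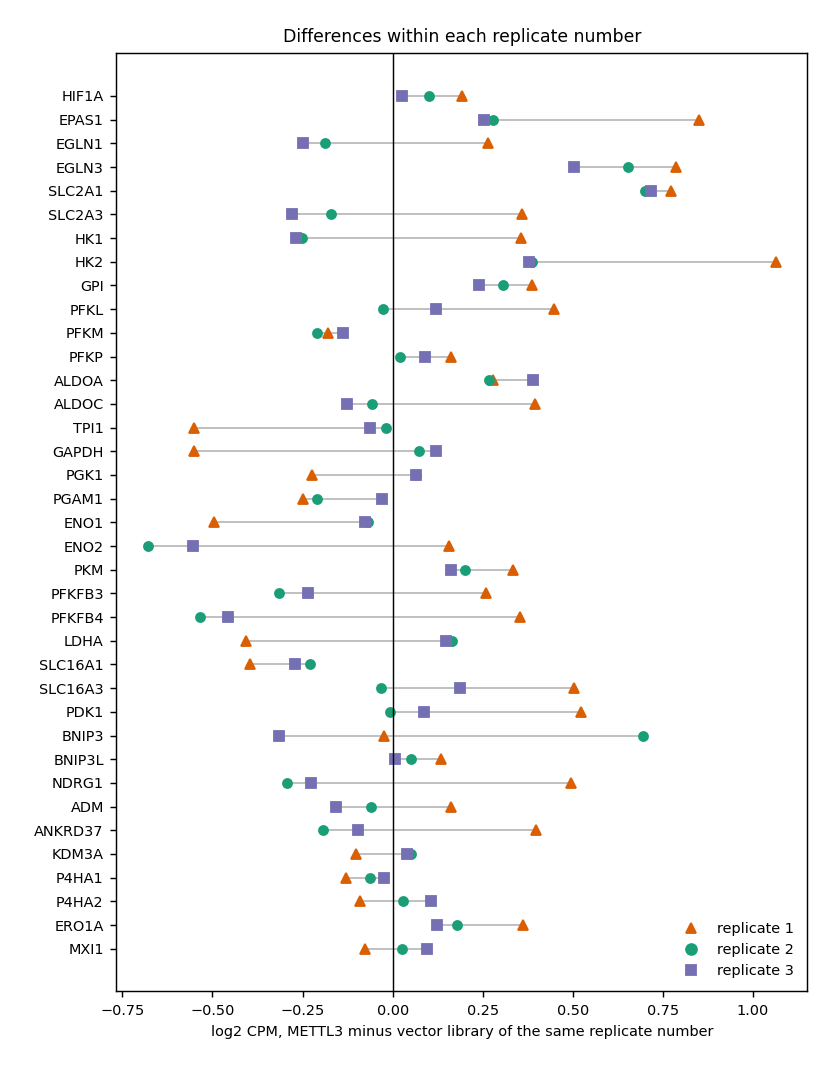
Difference in log2 CPM between the METTL3-overexpressing and the vector control library of the same replicate number, for the 37 members that passed the filter, with a marker for each number. SLC2A1 lies from 0.70 to 0.77, whereas HK2 and EPAS1 reach further at number 1, and ENO2, PFKFB4 and NDRG1 change sign between number 1 and the others.

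Across replicate numbers, whatever the group, 0 of 37 members passed an adjusted p-value of 0.05 in edgeR's test, where 7 of 22038 genes (0.0318%) did. At an unadjusted p-value under 0.05 there were 4 members (10.8%), EGLN3, SLC2A3, ALDOC and PGK1, against 13.1% of all genes. EGLN3 had an adjusted p of 0.102 and SLC2A3 of 0.168. On all 6 libraries DESeq2 called EGLN3 and SLC2A3 (6.52% of its genes), as did edgeR with the low-count filter removed (3.44% of its genes). Leaving out 1 library of replicate 1 raised the count. Without METTL3 replicate 1, 25 members (67.6%) and 40.7% of all genes passed, and without vector control replicate 1, 24 members (64.9%) and 29.7% of all genes passed, where the remaining library of number 1 is assumed to vary like the others. Without METTL3 replicate 3, EGLN3 passed (2.66% of all genes), and without METTL3 replicate 2 or vector control replicate 2 or 3, EGLN3 and SLC2A3 passed (2.42% to 3.64%). The log2 difference of replicate 1 from the mean of replicates 2 and 3 was 1.01 with METTL3 and 0.80 with the vector for EGLN3, and 1.13 and 0.55 for SLC2A3. For ALDOC the same differences were 0.74 and 0.25, and for PGK1 they were 0.30 and 0.59. These 4 genes thus stood higher in replicate 1 of both groups.

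The replicate 1 libraries were not alike for the members as a whole. METTL3 replicate 1 was the highest of the 6 libraries for 15 members (40.5%, against 25.1% of all genes) and vector control replicate 1 for 9 (24.3%, against 30.1%). Vector control replicate 1 was the lowest library for 13 members (35.1%, against 24.7%) and METTL3 replicate 1 for 7 (18.9%, against 23.6%). The 9 genes highest in vector control replicate 1 were TPI1, GAPDH, PGK1, ENO1, LDHA, BNIP3, KDM3A, P4HA1 and P4HA2, of which TPI1, GAPDH and PGK1 are successive steps of glycolysis. Both replicate 1 libraries lay above all 4 others for 9 members (24.3%, against 17% of all genes), namely EGLN3, SLC2A3, ALDOC, PGK1, PDK1, BNIP3, BNIP3L, P4HA1 and P4HA2. They lay under all 4 others for HK1, PFKM, PFKP, ENO2 and MXI1 (13.5%, against 15.4%). The median deviation of the members from their own mean was 0.15 on the log2 scale in METTL3 replicate 1 and lay between -0.061 and -0.0083 in the other 5 libraries. The 17 transporters and glycolytic enzymes summed to 11682, 11867 and 11721 CPM in the METTL3 libraries, against 12522, 11228 and 11091 CPM in the controls, so vector control replicate 1 held the largest sum.

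**Figure D4:**
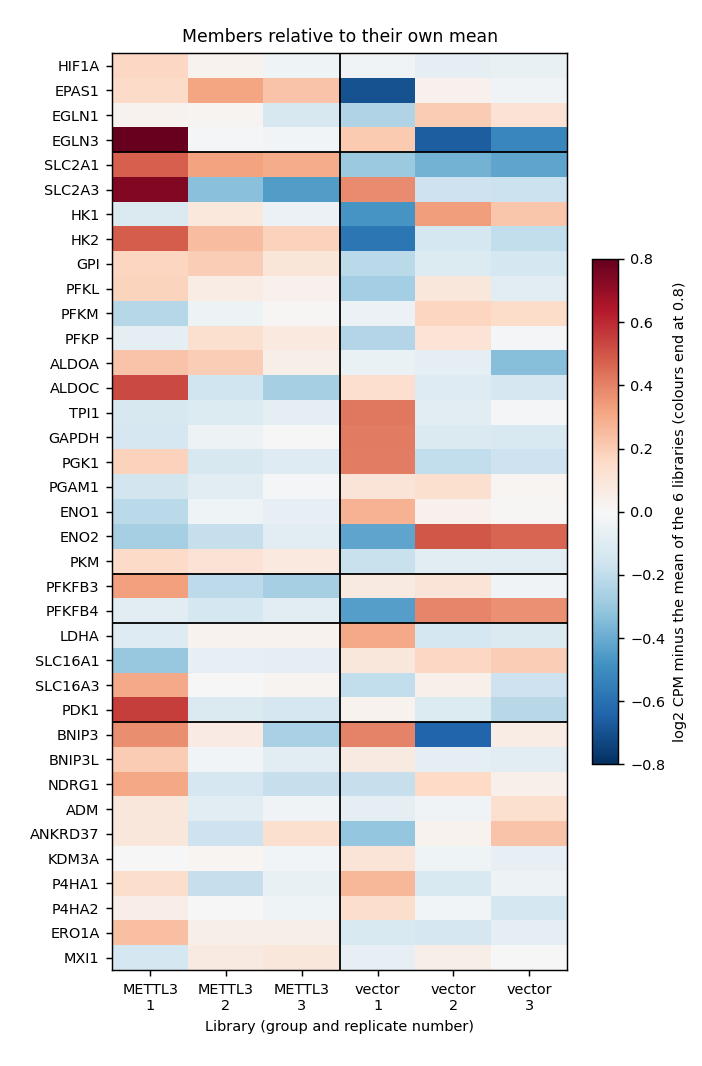
Each member's log2 CPM in each of the 6 libraries minus its mean over them, with red above and blue under the mean, colours ending at 0.8, and lines between the roles and the groups. EGLN3, SLC2A3, ALDOC and PDK1 are red in METTL3 replicate 1, TPI1, GAPDH, PGK1, ENO1 and LDHA are red in vector control replicate 1, and SLC2A1 is red in the 3 METTL3 libraries.

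Other genes of the pathway showed the same libraries apart. Of 28 HIF targets outside the 38 members, none passed between groups in edgeR's test. Changes were positive for 17 and negative for 11, with a median log2 fold change of 0.22. The median difference within replicate numbers was 0.39 for number 1, 0.017 for number 2 and -0.035 for number 3. In the fit of replicates 2 and 3 alone the median log2 fold change was -0.0025. METTL3 replicate 1 was the highest library for 16 of them, and for 25.1% of all genes tested. CA9, the carbonic anhydrase used as a hypoxia marker, was at 2.52, 0.694 and 0.594 CPM with METTL3 and at 0.601, 0.354 and 0.479 CPM with the vector (log2 fold change 1.41, SE 0.556, adjusted p = 0.569). VEGFA, the angiogenic growth factor, was at 140, 88.4 and 89.0 CPM against 67.2, 75.1 and 70.6 CPM (log2 fold change 0.58, SE 0.186, adjusted p = 0.517). VEGFA did not overlap between groups, and both genes peaked in METTL3 replicate 1. TMEM158 was low in replicate 1 of both groups, at 7 and 6.82 CPM against 12.7 to 17.6 CPM. Of the 15 regulators of the HIF pathway, 14 were tested and none passed either test. CREBBP, a coactivator of HIF, was at 151, 127 and 108 CPM against 67.5, 92.9 and 91.5 CPM (log2 fold change 0.61, SE 0.171, adjusted p = 0.439), and the HIF partner ARNT2 was at 15.8, 39.4 and 33.1 CPM against 18.8, 54 and 50 CPM.

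Lists tied to nutrient supply, growth and contact also differed between the replicate 1 libraries. Of 12 glucose and nutrient stress genes, 9 were highest in METTL3 replicate 1 (25.1% of all genes were) and 10 were lowest in vector control replicate 1 (24.7%). The median deviation was 0.46 and -0.33 in these libraries. TXNIP, the glucose-responsive inhibitor of glucose uptake, did not follow that order, at 285, 244 and 231 CPM with METTL3, against 243, 183 and 184 CPM with the vector. Its log2 fold change was 0.32 (SE 0.152, adjusted p = 0.621), and replicate 1 was the highest in each group. ATF4, the transcription factor of the amino acid response, stood at 381 and 368 CPM in the replicate 1 libraries and at 283 to 313 CPM in the others. Of 20 proliferation genes, 14 were lowest in METTL3 replicate 1 (23.6% of all genes were) and 11 were highest in vector control replicate 1 (30.1%). Their summed levels were 4527, 5954 and 5894 CPM with METTL3, against 6110, 5564 and 5654 CPM with the vector. Among them, the mitotic kinase gene AURKB stood at 51.1 and 57.6 CPM in the replicate 1 libraries and at 85.2 to 93.3 CPM in the others, while the replication helicase gene MCM5 was at 260 to 273 CPM with METTL3, against 217 to 223 CPM with the vector. Of the 10 contact-sensitive YAP targets, 7 were lowest in vector control replicate 1 (24.7% of all genes were). CCN2, a secreted YAP target, was at 44.8, 98.0 and 99.8 CPM with METTL3, against 32.1, 130 and 138 CPM with the vector, and the receptor gene AXL was at 320, 635 and 594 CPM against 363, 735 and 693 CPM. No gene of these 3 lists passed an adjusted p-value of 0.05 in either test on all 6 libraries. Across replicate numbers, 4 proliferation genes, 4 YAP targets and 0 nutrient stress genes had an unadjusted p-value under 0.05. These were out of 20, 10 and 12 genes, where 13.1% of all genes tested did. Between groups with replicates 2 and 3 alone, edgeR called 3, 5 and 6 genes of these lists in the same order, and 15.2% of all genes. TXNIP and CCN2 were among those called, with log2 fold changes of 0.37 and -0.44. The labels record no density, so the levels of the hypoxia genes and of these lists cannot be set against one, and the part of culture density in any result was not tested.

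**Figure D5:**
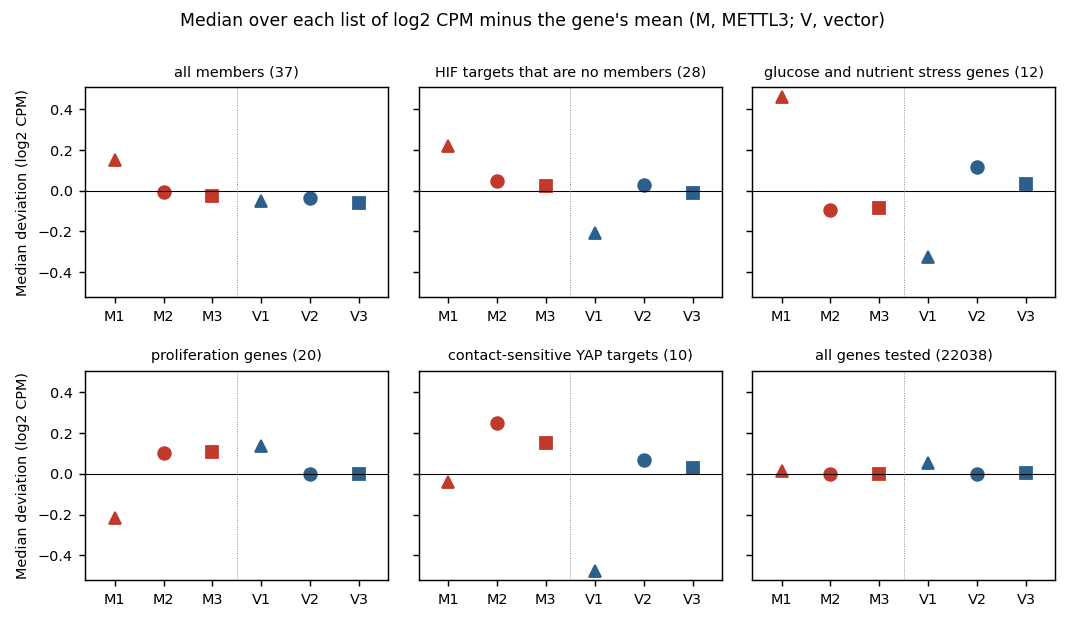
Median over each gene list of the log2 CPM deviation from the gene's own mean, for each METTL3-overexpressing (M) and vector control (V) library, with the number of genes in brackets. The members, the other HIF targets and the nutrient stress genes peak in METTL3 replicate 1 (0.15, 0.22 and 0.46), where the proliferation genes are lowest (-0.22), and the median over all genes tested stays between -0.0020 and 0.054.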

How the data were processed

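The 38 members and the other gene lists were chosen with earlier results of these data known. Per the labels' processing notes, the authors used fastp, HISAT2 and featureCounts of Subread on GRCh38, and deposited raw read counts per gene, not normalized. Versions, annotation release, and the handling of strand and of reads shared by several genes are not given in the sources used here. Between 67.6% and 70.5% of counts from 1 to 20 were even, so counts divided by 2 were also tested. Gene identifiers were matched to GENCODE release 44, which named 60507 of 60649 rows.

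In R 4.3.3, 22038 genes passed filterByExpr of edgeR 4.0.16, were scaled by TMM, and were fitted with glmQLFit with its robust option. P-values of glmQLFTest were adjusted by Benjamini-Hochberg over all of them, with a threshold of 0.05. Groups were compared without a block, and replicate numbers were tested with group in the model. The standard error (SE) is the absolute log2 fold change divided by the root of its F statistic. CPM use the deposited counts and TMM factors. DESeq2 1.42.0 was an alternative, as were other scalings, filters, a GC and length trend (splines with 5 degrees of freedom each), a replicate block, replicates 2 and 3 only, and each library left out. Functions were tested on simulated counts. Deviations of same-numbered libraries from their group means had correlations of 0.33, 0.12 and 0.17. Each exceeded 0.1, and the numbers were treated as pairs in the replicate block and in the differences within numbers. This pairing comes from the values and is not shown for numbers 2 and 3. METTL3 replicate 2 reached 0.21 with vector control replicate 3, and METTL3 replicate 3 reached 0.13 with vector control replicate 2. With deviations taken from group means, a shift shared by the replicate 1 libraries can by itself raise all these values. All members are named, with every library's value for a fixed set and for the 10 with the lowest p in each test. From each other pathway list, the 2 with the lowest p in either test are named, except for a gene of the HIF target list that is not reported here. Promoter windows came from RefSeq.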

Additional observations from a re-analysis of the deposited data

How the results depend on the processing

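The count of members called between groups was 0 in edgeR's filtered fit of all 6 libraries. It was 3 without a filter on low counts (1.3% of all genes in that fit) and 1 with DESeq2 (1.47%). With replicates 2 and 3 of each group it was 16 (15.2%). In further fits of those libraries, added after seeing the data, it was 20 with the GC and length trend removed (21.4%) and 16 with DESeq2 (19.6%). It stayed 0 with the replicate block, with the block and the GC and length trend removed, and under the other scalings and filters. With each library left out in turn it ranged from 0 to 3, and 3 came without vector control replicate 1 (1.62% of all genes). The count across replicate numbers was 2 without a filter (3.44% of all genes) and 2 with DESeq2 (6.52%). It ran from 1 to 25 with a library left out. The count of 25 came without METTL3 replicate 1 (40.7%), and 24 came without vector control replicate 1 (29.7%), so the shares over all genes rose as well. In both fits the remaining replicate 1 library was fitted exactly, so the spread came from replicates 2 and 3 alone. What else bears on the rise was not tested. The median log2 fold change of the members was 0.017 in the main fit. It ran from -0.0071 to 0.089 under the 16 alternatives for which it was computed, so its sign was not constant. These moves were smaller than the SD of the median difference over the 3 replicate numbers (0.145). That SD is a wide yardstick, since the median difference was 0.26 for number 1 and -0.0077 and 0.026 for numbers 2 and 3. The replicate block gave a median of 0.014 and changed no call of a member. Totals of 96633925 to 125463386 counts leave little counting error for most members, but BNIP3, ANKRD37 and CA9 lay at 0.354 to 2.52 CPM, and counting error bears on them most.

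Of the 37 members tested, 18 kept the sign of their change under those 16 alternatives, HIF1A, EPAS1, EGLN3, SLC2A1, HK2, GPI, ALDOA, PKM and ERO1A among them. For the other 19 the sign turned under at least 1 of these. With replicates 2 and 3 of each group the log2 fold change was -0.22 for SLC2A3, -0.092 for ALDOC, 0.095 for GAPDH, 0.064 for PGK1, 0.15 for LDHA, -0.26 for NDRG1, -0.15 for ANKRD37 and 0.044 for KDM3A. The replicate block gave -0.029 for SLC2A3 and -0.010 for NDRG1. The GC and length trend removed gave 0.062 for LDHA, -0.016 for NDRG1 and 0.024 for P4HA1, and with the block as well -0.022 for SLC2A3, 0.059 for LDHA, -0.027 for NDRG1 and 0.019 for P4HA1. ADM was at 0.00040 without a filter, 0.0040 with at least 10 counts in every library and 0.0038 with counts divided by 2, and KDM3A was at 0.017, 0.019 and 0.018 in these and at 0.012 with RLE size factors and with DESeq2.

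With 1 library left out, the log2 fold change ranged from -0.19 to 0.047 for EGLN1, -0.41 to 0.28 for SLC2A3, -0.30 to 0.082 for HK1, -0.0034 to 0.19 for PFKP, -0.16 to 0.27 for ALDOC, -0.20 to 0.060 for GAPDH, -0.14 to 0.17 for PGK1, -0.27 to 0.052 for PFKFB3, -0.091 to 0.11 for LDHA and -0.0071 to 0.37 for PDK1. It ranged from -0.12 to 0.33 for BNIP3, -0.0022 to 0.14 for BNIP3L, -0.15 to 0.11 for NDRG1, -0.060 to 0.070 for ADM, -0.11 to 0.18 for ANKRD37, -0.010 to 0.048 for KDM3A, -0.15 to 0.050 for P4HA1, -0.024 to 0.090 for P4HA2 and -0.011 to 0.11 for MXI1. Among the other genes it ranged from -0.58 to 0.015 for TMEM158, -0.27 to 0.051 for PYGB, -0.015 to 0.22 for ATF4, -0.27 to 0.15 for AURKB, -0.47 to 0.057 for AXL and -0.73 to 0.0070 for CCN2.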

Other observations

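The routes that leave glycolysis were listed separately. Of 12 pentose phosphate and glycogen enzymes, 6 had positive and 6 negative changes with METTL3, with a median log2 fold change of -0.020 and 0 past an unadjusted p-value of 0.05 between groups. The glycogen phosphorylase genes PYGB and PYGL were at 169 and 202 CPM in METTL3 replicate 1 and at 155 and 231 CPM in vector control replicate 1. Their other libraries stood at 196 to 241 CPM for PYGB and 261 to 296 CPM for PYGL, and the unadjusted p across replicate numbers was 0.0461 and 0.0495 in edgeR's test, with adjusted p of 0.37 and 0.379.

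Of 12 genes of mitochondrial pyruvate entry, 6 had positive and 6 negative changes, with a median log2 fold change of -0.0031. PDK2, a pyruvate dehydrogenase kinase, was at 17.2, 16.3 and 14.8 CPM with METTL3 and at 11.8, 13.2 and 11.7 CPM with the vector, without overlap (log2 fold change 0.39, SE 0.13, adjusted p = 0.526). PDP1, the phosphatase that opposes it, was at 138, 101 and 101 CPM against 112, 84.8 and 86.6 CPM. PDP1 was highest in replicate 1 of each group, with an adjusted p of 0.266 across replicate numbers.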
